A study of Mus musculus with 53 samples.

Results

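The 38 HOX cluster genes described here are the listed members of the Hoxa, Hoxb, Hoxc and Hoxd clusters, and 34 of them were measured by a probe set that the platform annotation gives to that gene alone, out of 17097 genes named in that way on these arrays. Hoxa6, Hoxc6, Hoxc11 and Hoxc12 had no such probe set and are not analysed here. Where a gene had several probe sets, the one with the highest mean over all arrays was used, which gave 9 Hoxa, 10 Hoxb, 6 Hoxc and 9 Hoxd members.

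The data are 53 GeneChip arrays of mouse RNA in 9 groups. Embryonic mesenchymal cells (eMCs), primary cells from the limb soft parts of BALB/c embryos, carried a retrovirus either empty (pMYs-IRES-GFP, n = 4) or coding for the human fusion SS18-SSX1 (n = 4), and their RNA was taken 48 h after transduction. SS tumors (n = 12) and SS214 tumors (n = 13) grew under the skin of nude mice, which lack T cells. They came from eMCs carrying SS18-SSX1 alone or SS18-SSX1 with miR-214. Both kinds of tumor thus share the fusion and the viral promoter that drives it. In the vector with miR-214 its sequence took the place of GFP, and the paper reports a shorter mean latency with miR-214. A mixture of normal mouse tissues (n = 4) was the reference for normal tissue. The synovial sarcoma lines SS40 and SS64 were transfected with miR-214 or a negative control (NC), with n = 4 for each line and treatment. The name SS64 is that of the array labels, and the paper names its other line differently. No label says that the 4 arrays of a cell group or of the tissue mix came from separate cultures or pools, so p-values among them measure only the spread between these arrays.

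HOX genes code for homeodomain transcription factors that give cells their position along the body axis and along the limb. Genes at the 3' end of a cluster, with low numbers, are switched on early and towards the head, and genes at the 5' end, with high numbers, are switched on later and towards the tail or the tip of the limb. Polycomb proteins hold silent clusters closed, trithorax-type complexes such as MLL keep them active, and fibroblasts and other mesenchymal cells keep a HOX code of the place they came from. Members numbered 1 to 3 are called anterior here, 4 to 8 central and 9 to 13 posterior, which gave 7, 13 and 14 measured genes.

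Levels are log2 intensities on the scale the authors deposited, with values under a floor of 3.55 raised to it, so a gene at the floor has only an upper bound. Levels of different genes are not set against each other, because probe sets differ in brightness at equal RNA. A gene was called higher or lower in a comparison when limma's adjusted p, over all probe sets tested, was under 0.05 and the fold change was over 2. Counts of members with an unadjusted p under 0.05 have no share of all genes beside them, so they cannot be told from the background and are not read as results. The same holds where the arrays of compared groups did not overlap. The share of all genes without overlap was not computed, so overlap only describes the genes named. In bulk RNA, fewer cells of a type and less RNA per cell cannot be told apart.

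The limb origin of the eMCs comes from the paper and was not tested by these levels. Prrx1, 1 of the 10 limb position genes used below and also a mesenchyme marker, was at 10.72 in eMCs with the empty vector. It was at 10.89 in SS tumors, 10.90 in SS40 NC, 8.70 in SS64 NC and 7.73 in the tissue mix. Tbx4 and Tbx5, limb genes of the same list, were low in the eMCs, as given below. The tumors also held muscle. The summed level of 6 skeletal muscle markers was 8.70 to 8.78 in empty vector eMCs, 13.2 to 15.4 in SS tumors, 12.9 to 15.7 in SS214 tumors, 15.2 to 15.3 in the tissue mix and 7.28 to 7.66 in SS40 NC. In SS tumors against empty vector eMCs all 6 muscle markers were called higher, as were 4 of 5 epithelial markers (summed level 9.39 to 10.76 against 9.08 to 9.16) and 4 of 6 endothelial markers (7.56 to 9.13 against 7.11 to 7.26). Of 6 macrophage markers 2 were called higher and 2 lower (8.33 to 11.3 against 9.67 to 9.85). The part of these cells in the HOX differences was not tested. The 3' to 5' difference of Gapdh, a measure of RNA integrity in log2 units, was 0.33 to 1.43 in SS tumors and -0.33 to 0.48 over the other 8 groups. Median array intensities lay between 22.5 and 26.9 in all groups.

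The first comparison asked which HOX genes differed between the sarcomas and the cells they were made from. In SS tumors, 17 of the 34 members stood above empty vector eMCs and 1 below, against 14.5% and 8.7% of the 15625 genes tested. The rises were in the Hoxb cluster (8 of 10 measured), the Hoxc cluster (4 of 6) and the Hoxd cluster (4 of 9), and in the Hoxa cluster 1 of 9 rose and 1 fell. By position, 3 of 7 anterior, 6 of 13 central and 8 of 14 posterior members were higher. The median log2 difference over the 34 members was 0.93, beside 0.00 over all 17097 genes. All 34 members passed the filter on low values, but Hoxd1, Hoxd12 and Hoxb1 did so through the tumors alone, as they were at the floor on every eMC array. Hoxa13 and Hoxd11 were above it on 1 eMC array each, at 3.59 and 3.58, so they too needed the tumors to pass. Hoxb7 needed the eMC arrays to pass.

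**Figure D1:**
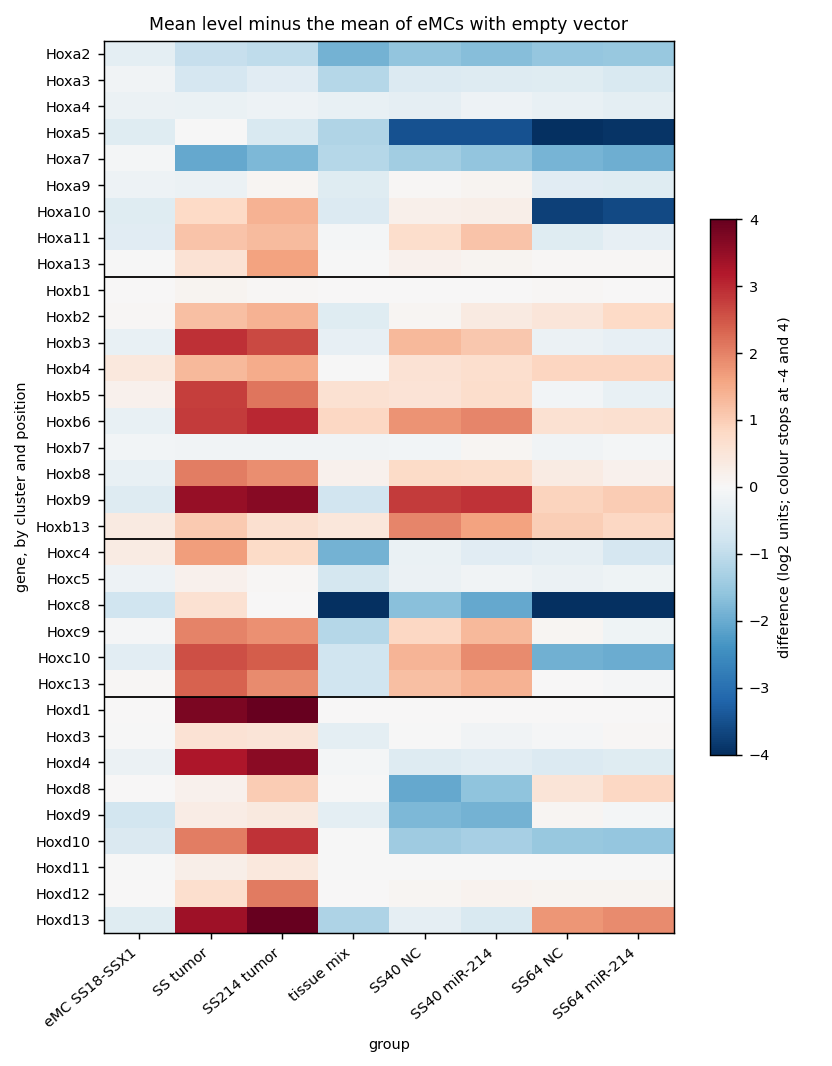
Mean level of each measured HOX gene in 8 groups minus its mean in eMCs with the empty vector, in log2 units, with genes ordered by cluster and by position within it. Most Hoxb and Hoxc rows are red in the tumor columns, as are Hoxd1, Hoxd4, Hoxd10 and Hoxd13. Hoxb1, Hoxb7, Hoxc5, Hoxd9 and Hoxd11 are pale there, as is Hoxd8 in SS tumors, and Hoxd3 is faint. The eMC SS18-SSX1 column stays between -0.80 and 0.42.

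Hoxd1, Hoxd4 and Hoxd13 rose most within the Hoxd cluster, and Hoxd8, between them, did not pass the test. The bases just before the start site of these genes are given here because they show how unlike the starts of the genes of 1 cluster are, with CpG dinucleotides in capitals. They are 250 bases each, 5' to 3', from RefSeq (GRCm38.p6, forward strand), at chr2:74667975-74668224 for Hoxd13, chr2:74704365-74704614 for Hoxd8, chr2:74721728-74721977 for Hoxd4 and chr2:74762730-74762979 for Hoxd1.
Hoxd13: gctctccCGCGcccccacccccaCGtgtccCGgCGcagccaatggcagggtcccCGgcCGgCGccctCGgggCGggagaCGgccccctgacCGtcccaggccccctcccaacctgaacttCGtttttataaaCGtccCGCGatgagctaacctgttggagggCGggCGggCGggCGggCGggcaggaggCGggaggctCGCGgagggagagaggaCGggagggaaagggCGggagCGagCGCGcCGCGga
Hoxd8: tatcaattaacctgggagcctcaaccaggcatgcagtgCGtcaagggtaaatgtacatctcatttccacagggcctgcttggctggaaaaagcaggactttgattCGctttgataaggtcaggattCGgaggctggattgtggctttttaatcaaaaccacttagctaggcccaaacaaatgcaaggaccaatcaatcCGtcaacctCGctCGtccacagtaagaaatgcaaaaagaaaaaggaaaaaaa
Hoxd4: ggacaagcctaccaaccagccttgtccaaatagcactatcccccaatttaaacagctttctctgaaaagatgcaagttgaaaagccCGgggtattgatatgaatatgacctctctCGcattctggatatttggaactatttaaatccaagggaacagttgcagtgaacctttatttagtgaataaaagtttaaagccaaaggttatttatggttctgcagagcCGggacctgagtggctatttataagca
Hoxd1: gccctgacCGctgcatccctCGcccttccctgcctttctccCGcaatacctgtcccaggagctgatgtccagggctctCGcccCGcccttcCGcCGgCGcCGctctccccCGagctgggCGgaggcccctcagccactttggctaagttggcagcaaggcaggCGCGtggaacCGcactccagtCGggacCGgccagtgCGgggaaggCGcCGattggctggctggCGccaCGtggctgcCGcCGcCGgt

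The Hoxd13 window held 31 CpGs and the Hoxd1 window 24, while those of Hoxd4 and Hoxd8 held 3 and 6. The 24 windows found for 22 of the 38 members, Hoxa6 among them, held 2 to 35 CpGs with a median of 12.5, beside a median of 6 over 32851 mouse promoters, of which 31.5% held at least 12.5. Of the genes that rose, Hoxd13 had many CpGs in its window and Hoxd4 few. Other genes that rose, such as Hoxb9, had no window, and the part of CpGs in the rises was not tested. The letters TTTATG on either strand, a core that Cdx proteins bind, stood in 5 of the 24 windows (20.8%), among them that of Hoxd4, and in 10.8% of all promoters. A match in these letters is a description only.

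Hoxd1, a 3' Hoxd gene known from pain-sensing neurons, was at the floor on all 4 arrays of eMCs with the empty vector. In SS tumors its lowest level was 5.90, its median 7.04 and its highest 9.57. By its mean of 7.32 in SS tumors, Hoxd1 was at least 13.7-fold higher there as a group, and less in the lowest tumors. No p is given, since it entered the fit through the tumors alone, although it is counted among the 17. It was also at the floor on every array of the tissue mix and on 15 of the 16 arrays of the sarcoma lines.

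Hoxd13, which patterns the digits, was at 4.73, 5.12, 5.24 and 4.81 on the 4 empty vector arrays. In SS tumors it ran from 6.91 through a median of 8.44 to 9.998. The groups did not overlap, and the log2 difference was 3.39 (SE 0.43, adjusted p = 2.46e-06). A second, dimmer Hoxd13 probe set was at 3.88 in SS tumors and 3.90 in eMCs (log2 difference -0.02, adjusted p = 0.824), so the rise rests on 1 of its 2 probe sets.

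Hoxd4, a gene of the hindbrain and neck vertebrae, was at 4.62, 4.47, 4.57 and 4.52 on the empty vector arrays. Its SS tumor levels were 6.95 at the lowest, 7.53 at the median and 9.60 at the highest, again with no overlap. The log2 difference was 3.25 (SE 0.39, adjusted p = 9.9e-07). Hoxd10, a gene of the hindlimb and lumbar region, was at 5.21, 5.11, 5.29 and 5.06 in these eMCs. It was at 5.49 to 9.17 in SS tumors with a median of 7.04, a log2 difference of 2.05 (SE 0.47, adjusted p = 0.00106), which was 0.94 and no longer called with the 3' to 5' Gapdh difference as a covariate.

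The other Hoxd members did not pass both thresholds. Hoxd8 (log2 difference 0.17, adjusted p = 0.74) and Hoxd9 (0.28, adjusted p = 0.586), genes of the central and proximal limb, had tumors on both sides of the eMC levels. Hoxd3 was 0.57 higher on the log2 scale with an adjusted p of 0.0235, under the fold required. Hoxd11 was 0.23 higher, also under it, and no p is given because it needed the tumors to pass the filter. Hoxd12, at the floor on every empty vector array, had a log2 difference of 0.66.

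The Hoxb cluster, whose genes are known from the hindbrain, trunk and blood progenitors, gave the most calls. Hoxb9, a posterior trunk gene, was at 6.03, 6.13, 6.23 and 5.83 on the empty vector arrays. It ran from 8.82 through a median of 9.40 to 10.54 in SS tumors. The groups did not overlap, with a log2 difference of 3.48 (SE 0.26, adjusted p = 2.68e-09). Hoxb3, an anterior gene of the hindbrain and pharynx, was at 7.31, 7.19, 7.31 and 7.58 in the eMCs and at 9.67 to 11.07 in SS tumors, a log2 difference of 2.93 (SE 0.21, adjusted p = 1.15e-09). Its second probe set gave 1.06 (adjusted p = 8.2e-05), the same direction at a smaller size.

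The central Hoxb genes rose as well. Hoxb6, a trunk gene, was 2.80 higher on the log2 scale (adjusted p = 6.82e-09). Hoxb5, also of the trunk, was 2.76 higher (adjusted p = 3.68e-07). Hoxb8, a gene of the trunk and of myeloid progenitors, was 2.06 higher (adjusted p = 5.47e-05). Hoxb4, known from blood stem cells, was 1.29 higher (adjusted p = 4.62e-07), with 1.19 at its second probe set. For each of these 4 genes every SS tumor was above every eMC array.

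Hoxb2, a hindbrain gene, was 1.21 higher on the log2 scale (adjusted p = 5.69e-05) and 0.87, not called, with the Gapdh covariate. Hoxb13, the most posterior Hoxb gene and a marker of prostate and tail, was 1.06 higher (adjusted p = 0.0074) with overlapping groups. The Hoxb13 call was lost when eMC empty vector array 2 was left out (1.00) and with a floor at the 40th percentile (0.90). Hoxb1, a hindbrain gene, was listed at or near the floor throughout, with a highest value of 3.99 in any SS tumor. Hoxb7 did not exceed 3.73 there and was above the floor in 3 of 12 SS tumors (log2 difference -0.13). It needed the eMC arrays to pass the filter, so no p is given.

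In the Hoxc cluster the calls were Hoxc4, Hoxc9, Hoxc10 and Hoxc13. Hoxc10, a gene of the hindlimb and lumbar spinal cord, was at 6.91, 6.96, 6.64 and 6.67 on the empty vector arrays. It was at 8.41 to 10.29 in SS tumors with a median of 9.45, with no overlap and a log2 difference of 2.58 (SE 0.23, adjusted p = 3.4e-08). Hoxc13, needed for hair and nails, was 2.37 higher (adjusted p = 1.01e-09). Hoxc9, a thoracic gene, was 1.98 higher (adjusted p = 4.41e-09), and Hoxc4, a neck and thorax gene, 1.66 higher (adjusted p = 1.57e-08). Hoxc8, a thoracic gene already at 9.48 in the eMCs, was 0.60 higher (adjusted p = 0.00651), under the fold required, and Hoxc5 differed by 0.16 (adjusted p = 0.232).

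The Hoxa cluster did not move as a block. Hoxa7, a thoracic gene, was at 6.69, 6.63, 6.62 and 6.57 on the empty vector arrays and at 3.96 to 4.79 in SS tumors, a median of 4.67. It was the 1 member called lower, with no overlap (log2 difference -2.04, SE 0.13, adjusted p = 2.45e-10). Hoxa11, a gene of the forearm and lower leg, was 1.15 higher (adjusted p = 0.000348), and 0.93 and not called after quantile normalization. Hoxa10, a lumbar and uterine gene, was 0.80 higher (adjusted p = 0.00338), under the fold required. Hoxa13, a gene of the digits and the urogenital tract, was 0.59 higher, also under it. No p is given for Hoxa13 because it needed the tumors to pass the filter.

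Hoxa2, a gene of the second pharyngeal arch, had a log2 difference of -0.92 (adjusted p = 0.00116) and also missed the fold. It was called lower after quantile normalization, with the Gapdh difference as a covariate and without empty vector array 3. Hoxa5 (-0.01), Hoxa9 (-0.24) and Hoxa4 (-0.25) did not pass the adjusted p of 0.05. Hoxa3, a gene of the thymus and parathyroid, had 4 probe sets that disagreed in direction. The brightest gave a log2 difference of -0.68 (adjusted p = 0.000843) and the next 0.53 (adjusted p = 0.0896), so no direction is given for Hoxa3.

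**Figure D2:**
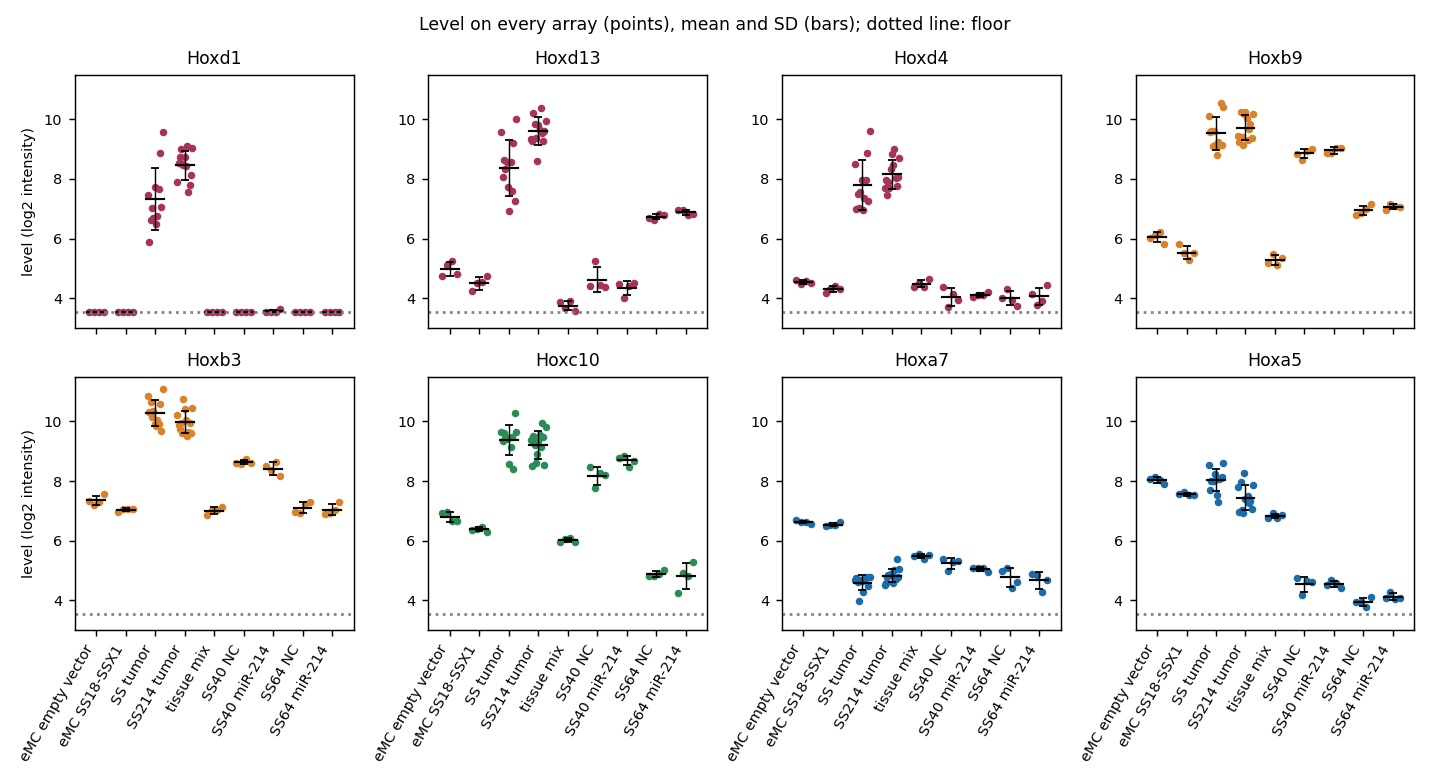
Levels of 8 HOX genes on every array, in log2 intensity, by group, with the mean and the SD of each group as bars and the floor of 3.55 as a dotted line. Hoxd1 leaves the floor in tumors and on 1 SS40 miR-214 array only, Hoxb9 and Hoxb3 are high in tumors and in SS40, and Hoxa5 is low in the lines.

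Against the tissue mix, the second reference, 19 of the 33 members tested were higher in SS tumors and 0 were lower, against 11.3% and 13.8% of the 15679 genes tested. Hoxb7 was at the floor on every tissue mix array and did not pass the filter. Hoxa13, Hoxb1, Hoxd1, Hoxd11 and Hoxd12 were at the floor there too and passed through the tumors alone, so they could only come out higher. Of these, Hoxd1 is counted among the 19. At any fold change 26 members were higher with an adjusted p under 0.05, and 1, Hoxa7, was lower (log2 difference -0.88, adjusted p = 8.48e-06). Of the 15679 genes tested, 5657 were higher and 4261 lower by that rule. limma gave 27 members an unadjusted p under 0.05 in either direction. Both comparisons use the same 12 SS tumors, so their calls are not independent. By cluster, 3 of 9 Hoxa, 7 of 10 Hoxb, 5 of 6 Hoxc and 4 of 9 Hoxd members were higher. The median log2 difference over the 34 members was 1.27, beside 0.03 over all genes.

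Hoxc8 differed most from the mix. It was at 5.13, 5.25, 5.40 and 5.20 on the tissue mix arrays and at 9.64 to 10.92 in SS tumors, a log2 difference of 4.84 (SE 0.18, adjusted p = 6.82e-14). Hoxd13 was 4.61 higher (adjusted p = 5.29e-08), Hoxb9 4.25 higher (adjusted p = 1.49e-10) and Hoxc4 3.55 higher (adjusted p = 2.95e-13). The second, dimmer Hoxd13 probe set was 0.25 above the mix (adjusted p = 0.017). Hoxd1 was at the floor on all tissue mix arrays and therefore at least 13.7-fold higher in the mean of the tumors.

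Hoxc10 (3.36), Hoxd4 (3.31), Hoxb3 (3.27), Hoxc13 (3.18) and Hoxc9 (3.12) followed on the same log2 scale, each with every tumor above every tissue mix array. Hoxb5 and Hoxd10 were 2.14 and 2.06 higher, and the Hoxd10 call was lost with the Gapdh covariate (1.01). Hoxa5, a neck, thorax and lung gene, was 1.19 higher than in the mix (adjusted p = 2.05e-05) while against the eMCs its difference was -0.01. The next brightest Hoxa3 probe set was 1.60 above the mix (adjusted p = 5.04e-05), while the brightest was 0.45 above it (adjusted p = 0.0149).

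Among the 12 SS tumors the Hoxd cluster had the widest spread. Over the 7 Hoxd members above the floor in all 12 SS tumors, the SD of the level had a median of 0.945, beside 0.326 over 8 Hoxa, 0.514 over 8 Hoxb and 0.312 over 6 Hoxc members. SS tumor 5 held the highest level of 6 of these 7 Hoxd genes and SS tumor 27 the lowest level of 6. The exceptions were Hoxd3, highest in SS tumor 18 (5.93), and Hoxd1, lowest in SS tumor 19 (5.90).

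Hoxd10 was at 9.17 in SS tumor 5 and at 5.49 in SS tumor 27, and Hoxd9, a gene of the upper limb segment, at 9.94 and 6.62. The summed muscle level was 14.88 and 14.5 in these 2 tumors, and the Gapdh difference 0.63 and 0.45. The 18 calls against the eMCs were unchanged in number with either tumor left out. In SS214 tumors the median SD of 9 Hoxd members was 0.428, beside 0.327, 0.553 and 0.405 over the Hoxa, Hoxb and Hoxc members. The difference in spread between the kinds of tumor was not tested.

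**Figure D3:**
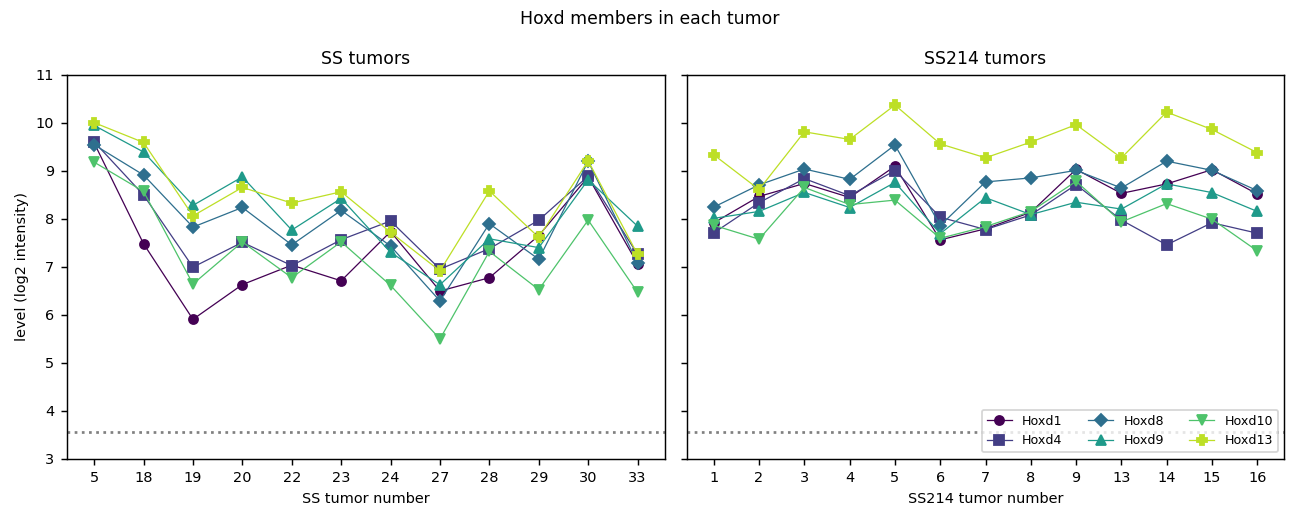
Levels of 6 Hoxd genes (log2 intensity) in each SS tumor and each SS214 tumor, by tumor number, with lines joining the tumors of a gene for the eye only. In SS tumors the genes peak at tumor 5 and most dip at tumor 27, between 5.49 and 9.998 over both tumors, and the SS214 tumors lie closer together.

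The genes that work with HOX proteins, those that act upstream of them and their neighbours on the chromosome were compared in the same fit. Of 9 HOX cofactors, TALE homeodomain proteins that bind DNA with HOX proteins, 8 were measured and 4 were higher in SS tumors than in empty vector eMCs, with 0 lower. These were Pbx3 (log2 difference 2.26, adjusted p = 1.59e-12), Meis1 (2.19, adjusted p = 1.04e-08), Meis2 (1.78, adjusted p = 8.7e-07) and Pknox2 (1.199, adjusted p = 1.49e-05). The median over the 8 was 0.82. Of all genes, 14.5% were called higher and 8.7% lower in this comparison.

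Of 12 upstream and activating regulators, 11 were measured and 9 tested, and 2 were higher, beside 14.5% of all genes. Cdx2, a homeobox gene that activates central HOX genes in the embryo, went from 5.21 to 9.64, a log2 difference of 4.43 (adjusted p = 2.67e-12). Mllt3, a partner of MLL and of the DOT1L methyltransferase, was 4.17 higher (adjusted p = 1.29e-15). Cdx1 and Cdx4 were at the floor in both groups, and the MLL complex genes Men1, Wdr5, Ash2l, Rbbp5 and Dpy30 had log2 differences between -0.48 (Dpy30) and 0.65 (Men1).

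Of 10 limb position genes, 9 were tested, 4 were higher and 0 lower, beside 14.5% and 8.7% of all genes. These were Msx1 (4.57), Shox2 (4.18), Pitx1 (3.54) and Msx2 (2.63), with adjusted p of 3.91e-10, 1.85e-16, 3.91e-08 and 5.86e-08. Pitx1 marks the hindlimb, and Tbx4, its partner there, was at 3.92 in SS tumors and 4.13 in eMCs, while the forelimb gene Tbx5 was at 4.52 and 4.56. Of 10 measured neighbours of the clusters, 3 were higher, beside 14.5% of all genes, led by Evx1, a homeobox gene beyond Hoxa13 (3.72, adjusted p = 1.66e-09). Evx2, in the same place beyond Hoxd13, had a difference of -0.51 (adjusted p = 0.000279), under the fold required.

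In eMCs 48 h after the fusion alone was introduced, no member passed both thresholds, of 29 tested, with 2.73% of the 15328 genes tested called higher and 0.92% lower. limma gave 21 members an unadjusted p under 0.05, and the test named in the methods 20. At any fold change, 3 members were higher and 17 lower with an adjusted p under 0.05, against 29.4% and 19.5% of all genes tested. The median log2 difference of the 34 members was -0.18 and that of all genes 0.00.

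Hoxc8 changed most. It was at 9.45, 9.47, 9.48 and 9.53 with the empty vector and at 8.67, 8.71, 8.72 and 8.64 with SS18-SSX1. The arrays did not overlap, and the log2 difference was -0.80 (SE 0.03, adjusted p = 1.64e-11). Hoxd9 was at 7.77, 8.03, 7.94 and 7.84 with the empty vector and at 7.19, 7.13, 7.12 and 7.21 with the fusion, a log2 difference of -0.74 (SE 0.06, adjusted p = 3.86e-08).

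Several genes called higher in the tumors had small negative log2 differences in the eMCs with the fusion. These were Hoxd10 (-0.58, adjusted p = 3.73e-05), Hoxb9 (-0.53, adjusted p = 0.00113), Hoxd13 (-0.47, adjusted p = 0.00695) and Hoxc10 (-0.42, adjusted p = 0.000408). Among the Hoxa genes the log2 difference was -0.48 for Hoxa10 (adjusted p = 7.44e-06), -0.48 for Hoxa5 (adjusted p = 1.59e-06) and -0.45 for Hoxa11 (adjusted p = 0.00168). The 3 that were higher were Hoxb4 (0.42, adjusted p = 0.000423), Hoxb13 (0.35, adjusted p = 0.0356) and Hoxc4 (0.34, adjusted p = 0.000149). Hoxd1, Hoxd12 and Hoxb1 were at the floor on all 8 arrays. The eMC and tumor comparisons share the empty vector arrays, so their values stand side by side here without a test between them. The muscle markers were also higher in eMCs with the fusion (summed level 10.70 to 10.79, 2 of 6 called), as were those of endothelium (9.64 to 9.68 against 7.11 to 7.26, 5 of 6 called), and their part in these small differences was not tested.

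miR-214 was introduced with the fusion in the SS214 tumors. The paper reports raised miR-214 also in tumors made with the fusion alone, some with retroviral insertions at its locus and several without. Tumors that carry the labels of those with insertions are in the SS group here, so that group was not free of raised miR-214. The comparison below is thus between tumors with and without introduced miR-214. Introduced miR-214, the lack of GFP in its vector and the shorter latency cannot be told apart in it. The part of raised miR-214 within the SS group was not tested. The mature forms of mouse miR-214 are shown because the labels and methods of the arrays give no arm, with the seed (bases 2 to 8) in capitals, from RefSeq (GRCm38.p6).
mmu-miR-214-3p: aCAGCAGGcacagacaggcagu
mmu-miR-214-5p: uGCCUGUCuacacuugcugugc

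Of the 34 members tested, 4 were higher in SS214 than in SS tumors and 0 lower, against 0.946% and 1.06% of the 15644 genes tested. limma gave 15 members an unadjusted p under 0.05. At any fold change 9 were higher and 5 lower with an adjusted p under 0.05, against 22.6% and 17.3% of all genes. The calls were the posterior genes Hoxd12, Hoxd13 and Hoxa13, all of the distal limb, and the anterior gene Hoxd1.

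Hoxd12, a gene of the digits, was at 3.55 to 5.36 in SS tumors with a median of 4.08, and at 4.72 to 6.37 in SS214 tumors with a median of 5.78. The ranges overlapped, and the log2 difference was 1.42 (SE 0.21, adjusted p = 1.28e-05). Hoxd13 was at 6.91 to 9.998 in SS tumors and at 8.60 to 10.36 in SS214 tumors, a difference of 1.23 (SE 0.27, adjusted p = 0.000913), and its second probe set gave 0.78 (adjusted p = 1.42e-05). Hoxd1 was at 7.56 to 9.09 in SS214 tumors and was 1.13 higher (SE 0.30, adjusted p = 0.00424). Hoxa13 was 1.02 higher (SE 0.14, adjusted p = 7.68e-06).

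Hoxd8 (0.86, adjusted p = 0.0144) and Hoxd10 (0.84, adjusted p = 0.0236) were higher under the fold required. The genes lower in SS214 tumors lay elsewhere, namely Hoxc4 (-0.88, adjusted p = 1.36e-05), Hoxb5 (-0.63, adjusted p = 0.0317), Hoxc8 (-0.59, adjusted p = 0.00298), Hoxa5 (-0.58, adjusted p = 0.0041) and Hoxc13 (-0.47, adjusted p = 0.0226). The median difference was 0.84 over the Hoxd members, 0.21 over Hoxa, -0.03 over Hoxb and -0.31 over Hoxc, beside 0.02 over all genes. The 2 Hoxc5 probe sets disagreed, at -0.12 (adjusted p = 0.362) and 0.20 (adjusted p = 0.00734). None of 8 measured cofactors was called, and the log2 difference of Meis1 was -0.73 (adjusted p = 0.00146).

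The Gapdh 3' to 5' difference was 0.85 ± 0.37 (SD, n = 12) in SS and 0.06 ± 0.14 (SD, n = 13) in SS214 tumors. With it as a covariate 4 members were again called, but Hoxd8 and Hoxd10 took the place of Hoxa13 (0.89) and Hoxd1 (1.22). The summed level of 3 lung markers was 9.67 to 12.2 in SS214 tumors 13 to 16 and at most 8.70 in the others. Without these 4 tumors, 3 of the calls held and Hoxa13 was at 0.97. The call of Hoxa13 was also lost after quantile normalization (0.95) and with a floor at the 40th percentile (0.91). Of 6 macrophage markers 1 was called higher in SS214 tumors and 4 were higher at any fold, with a median log2 difference of 0.82 (summed level 9.10 to 11.2 against 8.33 to 11.3 in SS tumors), and their part in these differences was not tested.

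**Figure D4:**
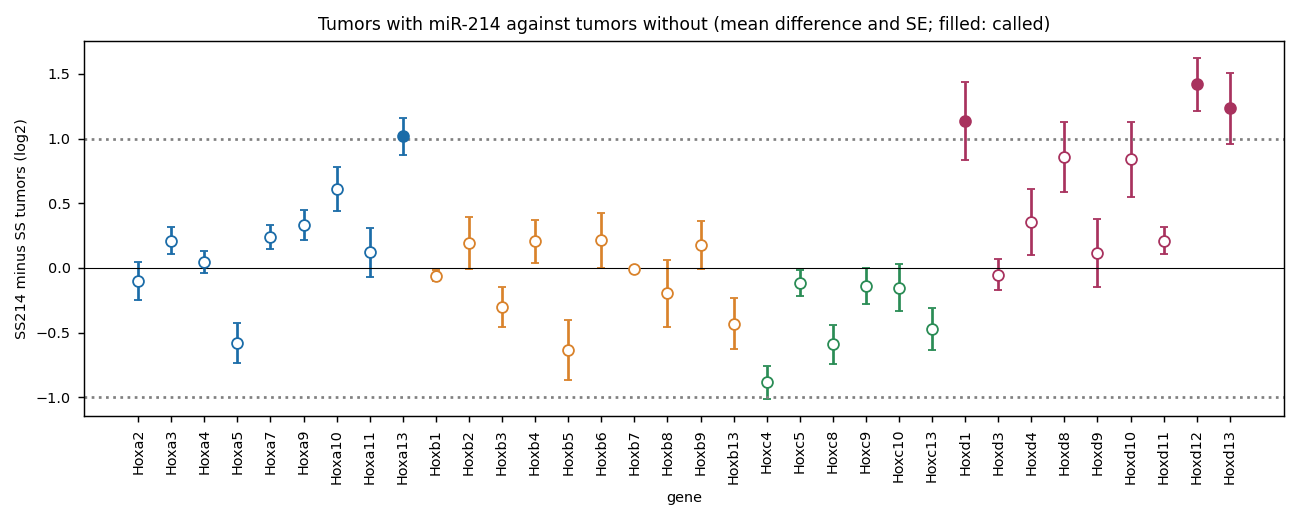
Mean log2 difference of each HOX gene between SS214 and SS tumors with its SE, coloured by cluster, with filled points for the 4 called genes and dotted lines at a fold change of 2. The Hoxd and Hoxa13 points lead on the higher side, up to 1.42, and Hoxc4 at -0.88 is the lowest.

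The lines were compared with the same eMCs to describe HOX genes of sarcoma cells without host tissue. In SS40 NC, 6 of 30 members tested stood above empty vector eMCs and 7 below, against 8.69% and 8.54% of 15501 genes. In SS64 NC, 1 of 30 was higher and 7 were lower, against 7.45% and 8.64% of 15505 genes. The 2 comparisons share the eMC arrays. Of the muscle, endothelial and macrophage markers none was called higher in either line, and 5 of the 7 mesenchyme markers were called lower in SS64 NC.

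The genes called higher in SS40 were posterior Hoxb and Hoxc genes with Hoxb3 and Hoxb6. Hoxb9 was at 8.83, 8.65, 8.95 and 9.01 in SS40 NC, 2.80 above the eMCs on the log2 scale (SE 0.11, adjusted p = 1.5e-09). Hoxb13 was at 6.21, 6.00, 5.85 and 6.03 there, 1.96 above them (adjusted p = 2.35e-07). Hoxb6 (1.80), Hoxc10 (1.37), Hoxb3 (1.28) and Hoxc13 (1.21) were also higher, and the Hoxb3 call was lost with the mean of its probe sets (0.89).

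In SS64 the 1 gene called higher was Hoxd13. It was at 6.71, 6.62, 6.83 and 6.80 in SS64 NC, 1.76 above the eMCs (SE 0.11, adjusted p = 1.11e-08), and at 0.98, not called, with the mean of its probe sets. SS40 NC was at 4.41, 5.24, 4.44 and 4.39 for this gene and did not pass the test against the eMCs (log2 difference -0.36, adjusted p = 0.156). The NC arrays of both lines stayed below the lowest SS tumor.

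Several genes were lower in both lines than in the eMCs. Hoxa5 was at 7.91 to 8.13 in the eMCs, at 4.74, 4.17, 4.64 and 4.62 in SS40 NC and at 3.93, 3.95, 3.79 and 4.11 in SS64 NC. The log2 differences were -3.50 (SE 0.12, adjusted p = 8.4e-10) and -4.09 (SE 0.09, adjusted p = 9.42e-14). SS tumors, at 7.29 to 8.61, lay far above both lines. Hoxa2 (-1.59 and -1.54), Hoxa7 (-1.39 and -1.85), Hoxc8 (-1.66 and -5.60) and Hoxd10 (-1.43 and -1.53) were also called lower in SS40 and in SS64, in that order.

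SS40 was lower alone for Hoxd8 (-2.04) and Hoxd9 (-1.80), and SS64 for Hoxa10 (-3.73) and Hoxc10 (-1.91). Hoxd1, at or near the floor in both lines, and Hoxd4, at 3.69 to 4.37 and 3.74 to 4.30, were far under the tumor levels of 5.90 and 6.95 and above. Culture, host cells and the tumor of origin cannot be told apart in these groups. Hoxa3 was lower at its 2 brighter probe sets in both lines, by differing amounts (-0.54 and -1.28 in SS40, -0.47 and -1.09 in SS64), and those of Hoxb3 disagreed in SS64 (-0.25, adjusted p = 0.0505, and 0.28, adjusted p = 0.0497).

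**Figure D5:**
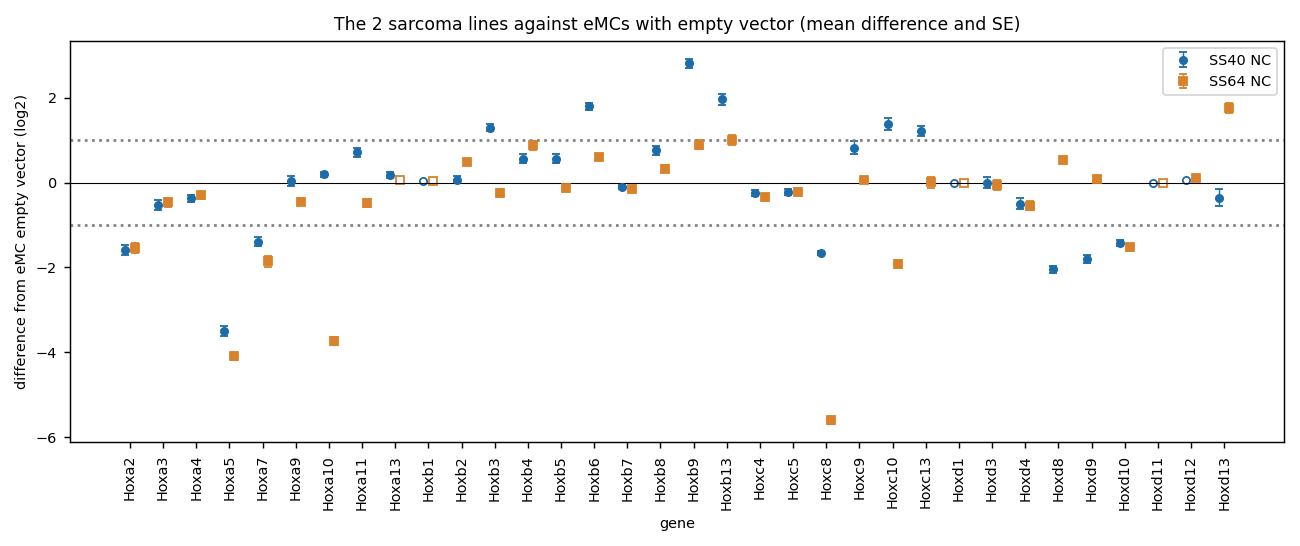
Mean log2 difference of each HOX gene in SS40 NC and in SS64 NC from eMCs with the empty vector, with its SE, hollow where the gene did not pass the filter and so has no SE, and dotted lines at a fold change of 2. The lines part most at Hoxa10, Hoxc8, Hoxc10, Hoxd8, Hoxd9 and Hoxd13, and lie together at Hoxa2, Hoxa5 and Hoxd10.

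The lines were then set against each other. Of 31 members tested, 8 were higher in SS40 NC and 3 higher in SS64 NC, against 6.02% and 6.34% of 15474 genes. Hoxc8 was at 7.90, 7.72, 7.82 and 7.83 in SS40 NC and at 3.79, 4.06, 3.69 and 4.00 in SS64 NC, a log2 difference of 3.94 (SE 0.10, adjusted p = 1.58e-10). Hoxa10 was at 8.53 to 8.65 and 4.46 to 4.90, a difference of 3.92 (SE 0.10, adjusted p = 1.35e-10). Hoxc10 was 3.28 higher (SE 0.14, adjusted p = 7.81e-09).

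Hoxb9 (1.91), Hoxb3 (1.53), Hoxc13 (1.21), Hoxb6 (1.19) and Hoxa11 (1.19) completed the genes higher in SS40, and Hoxb3 fell to 0.87 with the mean of its probe sets. The genes higher in SS64 were 3 of the Hoxd cluster. Hoxd8 was at 5.56 to 5.88 in SS40 NC and 8.17 to 8.39 in SS64 NC (log2 difference -2.57, SE 0.09, adjusted p = 1.51e-09). Hoxd13 and Hoxd9 differed by -2.12 and -1.87, though the second Hoxd13 probe set gave -0.18 (adjusted p = 0.0414). None of these groups overlapped, and with 1 line each the difference is between 2 lines.

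Among the other lists, Meis1 was lower than in the eMCs in both lines (-1.42 and -1.47), the 1 cofactor called in each. Of the regulators, Mllt3 was 1.85 higher in SS40 NC and 2.38 higher in SS64 NC and Ash2l was 1.22 higher in SS40 NC, while Cdx2 was at 5.47 and 5.57, close to the 5.21 of the eMCs. Pitx1, Shox2 and Msx1 were 2.19, 2.58 and 2.05 higher in SS40 NC. In SS64 NC Shox2 was 1.56 higher and Prrx1 differed by -2.02. Of 10 cluster neighbours, 2 were called higher in SS40 NC, beside 8.69% of all genes, and 2 higher and 1 lower in SS64 NC, beside 7.45% and 8.64%. Lnpk, a neighbour of the Hoxd cluster beyond Evx2, was 1.05 higher in SS40 NC and 1.82 higher in SS64 NC. Snx10 was 2.38 and 1.22 higher, and Skap2 differed by -1.19 in SS64 NC.

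Transfected miR-214 gave no HOX call in either line. In SS40, 0 of 31 members were called, with 0.0194% of 15443 genes called higher and 0.181% lower, and limma gave 7 members and the test named in the methods 5 an unadjusted p under 0.05. The log2 differences ran from -0.39 (Hoxc8) to 0.52 (Hoxc10). In SS64, 0 of 30 were called, with 0.0584% of 15403 genes higher and 0.182% lower, and 4 members had an unadjusted p under 0.05 in limma and 3 by the other test. There the differences ran from -0.32 (Hoxc4) to 0.31 (Hoxb2).

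At any fold change 2 members were higher in SS64, against 4.9% of all genes. Hoxb2 was at 7.58, 7.60, 7.52 and 7.55 with NC and at 8.01, 7.96, 7.81 and 7.72 with miR-214 (log2 difference 0.31, SE 0.07, adjusted p = 0.0145). Hoxd8 was at 8.21, 8.17, 8.35 and 8.39 and at 8.54, 8.59, 8.61 and 8.59 (0.30, SE 0.06, adjusted p = 0.006), and its second probe set gave 0.24 (adjusted p = 0.0543). In SS40 the same genes differed by 0.29 (adjusted p = 0.273) and 0.44 (adjusted p = 0.142) and did not pass the test. The second Hoxd8 probe set gave 0.08 (adjusted p = 0.884) there.

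The difference of the miR-214 change between SS40 and SS64 was called for 0 of 32 members, against 0.24% of 15828 genes, and 3 had an unadjusted p under 0.05. Hoxc9 had the smallest p, with a difference of 0.73 (SE 0.215, adjusted p = 0.212). Of the 4 genes called between SS214 and SS tumors, Hoxd1, Hoxd12 and Hoxa13 were at 3.88 or less on every line array, close to the floor. Hoxd13 was well above the floor in SS64, at 6.62 to 6.83 with NC and 6.79 to 6.95 with miR-214. With miR-214 Hoxa13 differed by -0.06 (adjusted p = 0.86) in SS40 and -0.02 (adjusted p = 0.9) in SS64, and Hoxd12 by 0.07 (adjusted p = 0.809) and 0.01 (adjusted p = 0.982). Hoxd1 was not tested. Hoxd13 differed by -0.27 (adjusted p = 0.741) in SS40 and 0.14 (adjusted p = 0.325) in SS64.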

How the data were processed

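The values are the intensities the authors deposited, linear, for 45141 probe sets on each of 53 arrays, from 5.36 to 11034. The submitters' processing notes name MAS5 without a version, and the background correction and scaling are not given in the sources used here. GEO's labels gave the groups. Names came from the annotation of the platform, brought up to date by gene ID. Probe sets with several symbols stayed unnamed, and 104 control probe sets were left out. A floor of 11.7 replaced lower intensities before log2 was taken, and it is the median over arrays of the 20th percentile of an array. limma 3.58.1 (R 4.3.3; lmFit, eBayes with trend) was run on the 2 groups compared, over all probe sets above the floor on at least 4 of their arrays, with Benjamini-Hochberg adjustment. Precision is limited by the number of arrays. Arrays were not scaled again.

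The HOX members and the gene lists were chosen with earlier results of these data known. Full values are given for members called in a comparison (at most 12 each, by size of change), for the member of each cluster that changed most where fewer were called, for those at the floor throughout a group and for those whose probe sets disagree. The fit was tested on data simulated for 3 of the comparisons. Same-numbered arrays of SS64 with miR-214 and NC deviated together (correlations 0.221 to 0.346 over probe sets). However, miR-214 arrays 1 and 3 correlated most with NC arrays 2 and 4. All same-numbered correlations were also positive, but at most 0.153, for eMCs with the fusion against the empty vector. For SS64 NC against the eMCs they were positive and at most 0.173. No label says that equal numbers pair arrays, so the reported fits were unpaired and a replicate block was an alternative. Alternatives were quantile normalization, other floors and filters, other probe set rules, 1 fit of all arrays, the test named in the study's methods, the 3' to 5' Gapdh difference as a covariate, a replicate block and leaving out arrays. Figures were drawn with matplotlib 3.10.9.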

Additional observations from a re-analysis of the deposited data

Results flagged for a closer look

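In groups of 4, 3 levels lay far from the other 3 arrays of their group, among 65 gene and group pairs examined, and chance alone marks about 1 in 20. Hoxb2 was at 6.91 on eMC empty vector array 1 and at 7.13 to 7.16 on the others. Hoxd13 was at 5.24 on SS40 NC array 2 and at 4.39 to 4.44 on the others, which raises the SS40 mean of this gene towards that of the eMCs. Hoxb6 was at 6.35 on SS64 NC array 2 and at 6.44 to 6.45 on the others.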

How the results depend on the processing

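Over 10 comparisons, 177 of 183 counts of called members under an alternative stayed within 1.5 times the reported count. The 6 that did not all dropped the fold requirement, where the count went from 0 to 20 in eMCs with SS18-SSX1, from 4 to 14 in SS214 against SS tumors, from 13 to 25 in SS40 and from 8 to 23 in SS64 against the eMCs, from 11 to 20 between the lines and from 0 to 2 for miR-214 in SS64. With adjusted p alone the rule is looser by construction. Single arrays were left out in turn from the groups of 4 only. The counts were then 17 to 19 for SS tumors against the eMCs and 19 to 20 against the tissue mix. They were 13 in SS40, 8 to 9 in SS64 and 11 to 12 between the lines, and 0 in eMCs with the fusion and for miR-214 in either line. SS tumor 5 or SS tumor 27 was left out by a choice made after seeing the data, and gave counts inside these ranges. No other tumor was left out singly.

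A replicate block gave 0 called members for eMCs with SS18-SSX1, 13 in SS40, 8 in SS64, 11 between the lines, 0 for miR-214 in either line and 0 for the difference between them, so pairing changed no count. No paired analysis was possible for the tumor comparisons, because tumor numbers name tumors only.

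Of 1139 values of called members under alternatives, 14 lost the call and 0 changed direction. They belong to Hoxa11, Hoxb2, Hoxb13, Hoxd10, Hoxa13, Hoxd1, Hoxb3 and Hoxd13, and are given beside the results, and the cause was not tested. Genes near the floor have compressed differences, and the platform gives no count of molecules.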
